A study of Mus musculus with 10 samples.

Results

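The genes described here are the homeobox patterning genes read in mouse testis after trichostatin A (TSA), an inhibitor of histone deacetylases. They were chosen by gene symbol, as the Hox genes of the 4 clusters and the dispersed Pax, Nkx, Lhx, Barx, Dlx, Msx, Six3 to Six5, Pou, Evx, Vax, Cdx, Gsc, Emx, En, Otx, Pitx, Meis, Pbx and Irx genes. The rule found 88 genes, each with 1 probe, among 9897 probes with values (8738 genes by probes with 1 symbol), and 26 were Hox cluster genes and 62 dispersed. It also took in Pou2af1, which encodes a coactivator of POU proteins, Dlx6os2, a non-coding transcript of the Dlx6 locus, and Pax1 and Pax9, which encode paired domain proteins without a homeodomain.

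Homeobox genes encode transcription factors that bind DNA through a homeodomain. The Hox genes lie in clusters, are switched on along the head to tail axis in the order in which they stand in the cluster, and are kept silent in most other adult cells by Polycomb complexes. Dispersed homeobox genes specify organs and cell types such as the eye, the stomach, the neural crest and the pituitary. In the adult mouse testis, Hoxa4 and Pou5f2 are known for expression in germ cells.

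The 4 TSA groups of male BALB/c mice, 9 weeks old, each held 3 animals given 60 µg TSA per mouse in 1 subcutaneous injection, with death at 2.5, 5, 7.5 or 10 h. The control group of 3 animals received carrier only, with death at 10 h, so it matched the 10 h TSA pool in hour and no other. RNA of the 3 testis samples of a group was pooled and read on 2 CodeLink 1-colour arrays, so each group was 1 pool (n = 1) with technical duplicates. Differences between animals were not measured, and p-values cover the spread of these pools only. Precision is limited by the 5 pools, of which 1 is the carrier pool. Whole testis RNA was read, in which fewer cells of a type and less RNA per cell cannot be told apart.

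Intensities are the deposited values, quantile normalised to a median of 1.00. The correlation of duplicates over probes was 0.995 to 0.998, lowest at 7.5 h, and 0 of the tested homeobox genes differed by over 2-fold between duplicates of any pool. Over all tested probes 53 differed by over 2-fold between the 7.5 h duplicates, against 9 to 15 in the other pools. The 14 measured germ cell markers summed to 913 to 976 on TSA arrays and 907 to 911 on carrier arrays. Of these 0 passed the test of TSA pools against control, and 1, Tex101, fell over hours (slope -0.116 ± 0.0174 log2 units per hour, SE, limma, adjusted p = 0.0387). Over all tested probes 3.53% passed the first test and 1.66% fell over hours. Sums for other cell types were 97.5 to 109.5 on TSA arrays and 97.9 to 105.5 on carrier arrays for 12 Sertoli genes, and 122 to 157 against 121 to 127 for 6 Leydig genes. The 6 endothelium markers summed to 3.54 to 3.99 on TSA arrays, all above the 3.05 on both carrier arrays. Eng stood highest of them at a log2 fold of 0.52 ± 0.12 (SE, limma, adjusted p = 0.059), and Pecam1 and Cdh5 were too dim to be tested. Of the 4 tested 0 passed the test of TSA pools against control or the trend test, against 3.53% and 2.01% of all tested probes. The 7 peritubular muscle markers summed to 17.1 and 17.6 at 5 h and 18.9 to 22.8 on the other TSA arrays, against 21.4 and 22.3 on carrier arrays. The 8 macrophage and leukocyte markers summed to 9.52 to 11.96 on TSA arrays and 9.9 and 11.8 on carrier arrays, with Cd163, Ptprc and Adgre1 too dim to be tested. One pool stood apart: 15 liver transcripts summed to 213 on both 5 h arrays, 18.2 to 19.8 on the other TSA arrays and 16.5 to 17.9 on carrier arrays. Of 7 epididymis genes, Eppin, at intensities of 7.96 to 8.37 in the TSA pools and 8.21 in the carrier pool, made up most of the sum of 9.09 to 10.3 on TSA arrays and 9.13 to 9.78 on carrier arrays. Lcn5, Lcn8 and Adam7 stayed below 0.207 on every array, while Gpx5 stood at 1.05 to 1.21 in the TSA pools and 0.698 in the carrier pool (log2 fold 0.67 ± 0.12 SE, limma, adjusted p = 0.0474). Defb1 went the other way, at 0.0878 to 0.118 in the TSA pools and 0.227 in the carrier pool. Adam28 read 0.0525 to 0.0915 in the TSA pools and 0.0586 in the carrier pool. Defb1 and Adam28 were too dim to be tested. The 11 neuron markers summed to 16.5 to 19.5 on TSA arrays and to 17.7 and 17.8 on carrier arrays, and 0 of the 7 tested passed either test, with 4 at an unadjusted p under 0.05 in the test of TSA pools against control and 3 in the trend test (limma), where the shares of all tested probes were 28.3% and 25.1%. The part of other cell types in the results below was not tested.

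Most homeobox probes were dim. After the dimmest 25% of all probes were left out, 51 of the 88 genes were tested, among them 13 of 26 Hox cluster genes and 38 of 62 dispersed genes, while 75.0% of all probes were kept. Nkx6-2 lay just inside this limit with a mean intensity of 0.234 and Hoxc6 just outside it with 0.206. Of the 37 genes left out, 27 stayed below an intensity of 0.207 on all 10 arrays, among them Hoxa2, Hoxa10, Hoxa11, Hoxa13, Hoxb4, Hoxb9 and Hoxd4. The other 10 passed that intensity on at least 1 array. Six4, a regulator of muscle precursors, was one of them, with 0.32 and 0.171 at 7.5 h, against 0.0346 to 0.0759 on every other array. En1, a gene of the midbrain and hindbrain border, had 0.211 and 0.282 at 7.5 h, against 0.0274 to 0.121 elsewhere. Pax6, the eye and pancreas regulator, had 0.24 and 0.212 at 10 h, against 0.0647 and 0.0345 on the carrier arrays. These levels are too near the lowest values of the arrays for a fold, and no flags of spots above background were used here.

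Setting the 4 TSA pools against the carrier pool asked in which homeobox genes the mean of the TSA pools differed from the carrier pool. In this comparison 10 of the 51 tested genes passed the limit of limma with Benjamini-Hochberg adjustment (adjusted p under 0.05), 9 of them higher and 1 lower after TSA. Over all 7422 tested probes the share was 3.53%, with 2.74% higher and 0.795% lower. The genes were chosen by symbol with earlier results of these data known, so the shares are a description of the set. The genes that rose were Hoxb3, Hoxb5, Hoxb13 and Hoxd1 of the Hox clusters and Barx1, Evx1, Gsc, Pax3 and Vax2 of the dispersed genes, and the gene that fell was Pou6f1. Of the Hox cluster genes 4 of 13 rose (30.8%) and of the dispersed genes 5 of 38 (13.2%), Barx1 among them, with no test of the difference between the classes. Barx1 alone of the 51 had a carrier pool below the intensity limit of the tested probes, and of the other 50 genes 9 passed, 8 of them higher. The test rests on 1 carrier pool, taken to vary like the TSA pools. Without the 2.5 h, 5 h or 10 h pool 0 of these genes passed, and without the 7.5 h pool 1 passed, Barx1, while 22 to 27 of the 51 (43.1% to 52.9%) had an unadjusted p under 0.05, against 22.6% to 30.2% of all tested probes. It was also 0 without the second 2.5 h array or the first 7.5 h array.

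**Figure D1:**
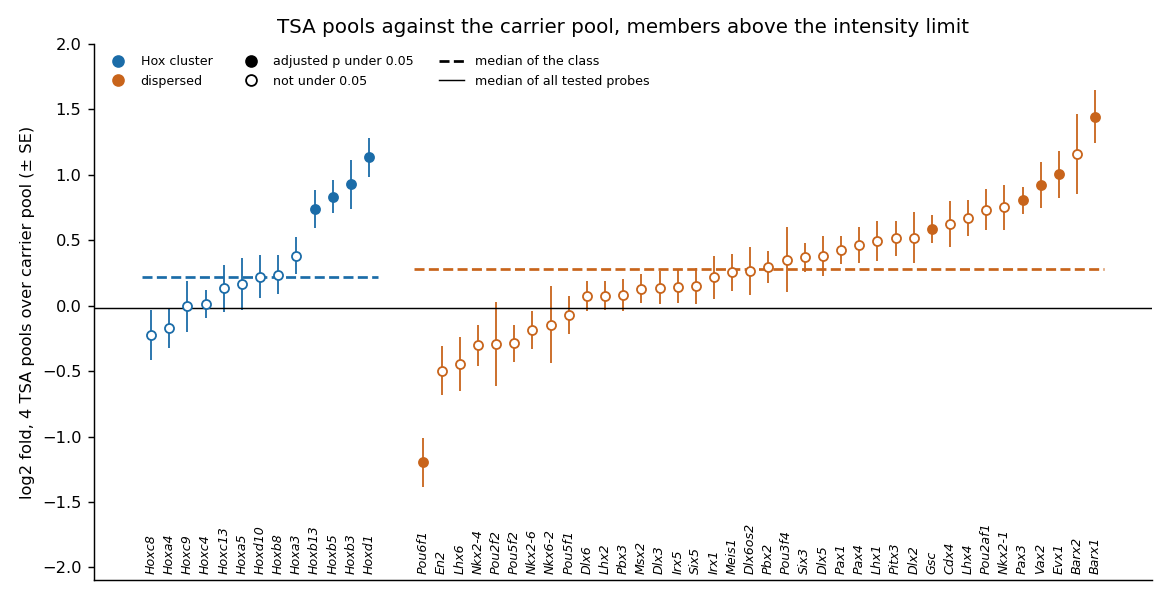
Log2 fold of the 4 TSA pools over the carrier pool with its standard error for each of the 13 Hox cluster genes (blue) and 38 dispersed genes (orange) that were tested. Filled points had a limma adjusted p under 0.05: 4 Hox cluster genes and 5 dispersed genes lie above 0 and Pou6f1 lies below it, and both class medians (dashed, 0.22 and 0.28) lie above the median of all tested probes (-0.02).

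Of the genes that rose 3 came from the HoxB cluster on chromosome 11. Hoxb3 (probe 4123), which patterns the hindbrain, had intensities of 7.85 and 10.4 in the carrier pool, 15.9 and 16.2 at 2.5 h, 14.5 and 15.6 at 5 h, 17.8 and 16.7 at 7.5 h, and 20.6 and 21.2 at 10 h. All 8 TSA arrays lay above both carrier arrays, with the 10 h arrays highest. The log2 fold of the TSA pools was 0.93 ± 0.18 (SE, limma, adjusted p = 0.0496), and it was higher in 4 of 4 TSA pools. The call was close to its limit: with the median deviation of probes of neighbouring IDs subtracted on each array (centring in probe ID bins) the fold was 0.98 ± 0.19 and its adjusted p 0.0521.

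Hoxb5 (probe 837), a gene of lung and gut nerve development, had 1.36 and 1.21 in the carrier pool, 2.36 and 2.01 at 2.5 h, 2.41 and 1.91 at 5 h, 2.22 and 2.57 at 7.5 h, and 2.42 and 2.46 at 10 h. Its TSA arrays did not overlap the carrier arrays, and the log2 fold was 0.83 ± 0.12 (SE, limma, adjusted p = 0.0439). Hoxb13 (probe 831), the gene at the far tail end of the cluster and known for its role in the prostate, had 4.04 and 4.17 in the carrier pool, 6.87 and 6.14 at 2.5 h, 6.62 and 6.21 at 5 h, 6.76 and 6.75 at 7.5 h, and 8.33 and 7.42 at 10 h. Again no TSA array overlapped the carrier arrays. The log2 fold was 0.74 ± 0.15 (SE, limma, adjusted p = 0.0485), and it stood at 0.66 ± 0.13 with an adjusted p of 0.0547 after centring in probe ID bins.

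Of the genes between these the set held Hoxb4, Hoxb8 and Hoxb9, which were dim, with Hoxb8 alone above the intensity limit. Hoxb4, which lies next to Hoxb3, read 0.0131 to 0.0577 on the TSA arrays and 0.0352 and 0.0288 on the carrier arrays, which is among the lowest values of the arrays. Hoxb9 read 0.0348 to 0.16 on the TSA arrays, against 0.0714 and 0.0744 on the carrier arrays. These 2 were not tested. Hoxb8 was tested and did not pass, at a log2 fold of 0.24 ± 0.15 (SE, limma, adjusted p = 0.324). Its mean was higher in 4 of 4 TSA pools, with both arrays above both carrier arrays at 7.5 h (0.30) and 10 h (0.37), and its difference from Hoxb3, Hoxb5 and Hoxb13 was not tested.

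In the HoxD cluster on chromosome 2, Hoxd1 passed. This gene of sensory neuron development (probe 398) had 0.425 and 0.427 in the carrier pool, 1.22 and 0.928 at 2.5 h, 0.981 and 0.731 at 5 h, 0.851 and 0.922 at 7.5 h, and 0.968 and 0.958 at 10 h. The lowest TSA array was well above both carrier arrays, and the 2.5 h and 5 h duplicates lay further apart than those of the later pools. The log2 fold was 1.14 ± 0.15 (SE, limma, adjusted p = 0.0400), and it was 1.04 ± 0.12 (adjusted p = 0.0369) after centring in probe ID bins. Hoxd10, a hindlimb and spinal cord gene, did not pass (0.22 ± 0.17 SE, limma, adjusted p = 0.420), and Hoxd3, Hoxd4, Hoxd9 and Hoxd11 were too dim to be tested.

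No gene of the HoxA cluster (3 tested of 8) or the HoxC cluster (4 tested of 6) passed. Hoxa4, the germ cell member, had pool intensities of 14.7 in the carrier pool and 14.1, 13.8, 13.2 and 11.4 at 2.5, 5, 7.5 and 10 h, with a log2 fold of -0.17 ± 0.15 (SE, limma, adjusted p = 0.469). Its 10 h arrays, at 11.3 and 11.5, lay below the carrier arrays at 14.1 and 15.4. Hoxa3 stood at 0.38 ± 0.14 (SE, limma, adjusted p = 0.138) with all TSA arrays above both carrier arrays, and Hoxa5 at 0.17 ± 0.20 (adjusted p = 0.609). In HoxC the folds ranged from -0.23 for Hoxc8 to 0.13 for Hoxc13, with Hoxc4 at 0.01 and Hoxc9 at -0.0063. By position in the clusters, 2 of 3 tested genes of paralog groups 1 to 3 rose, 1 of 6 of groups 4 to 8 and 1 of 4 of groups 9 to 13. Over all tested probes 2.74% rose. The groups are small, and a difference by position was not tested.

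**Figure D2:**
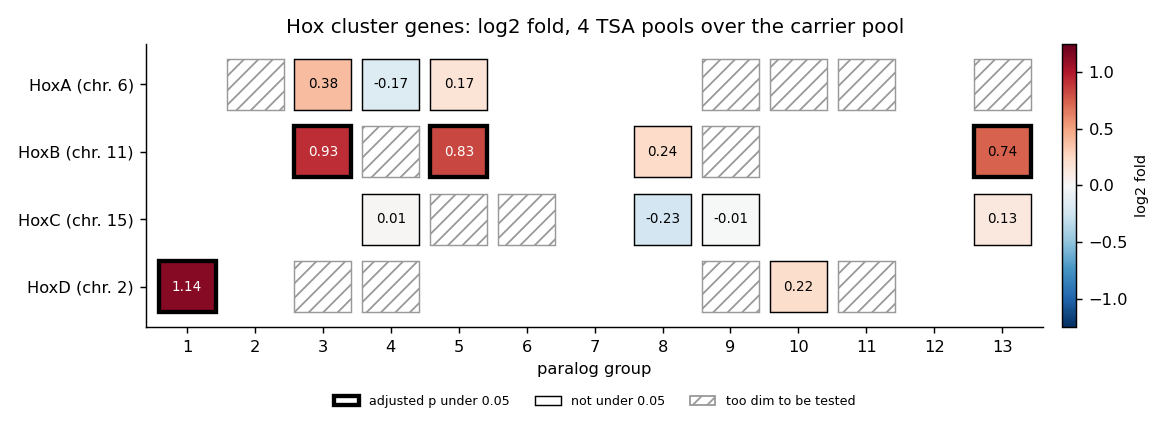
Log2 fold of the 4 TSA pools over the carrier pool for each Hox cluster gene on the arrays, by cluster (rows) and paralog group (columns). Thick frames mark the 4 genes with a limma adjusted p under 0.05, Hoxb3 (0.93), Hoxb5 (0.83), Hoxb13 (0.74) and Hoxd1 (1.14), hatched boxes the 13 genes too dim to be tested, and empty places have no gene of the set.

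The 2 Barx genes are dispersed homeobox genes of epithelial and muscle development. Barx1 (probe 6098, chromosome 13), which is needed for the stomach and the molar teeth, had 0.177 and 0.129 in the carrier pool, 0.42 and 0.454 at 2.5 h, 0.417 and 0.441 at 5 h, 0.321 and 0.327 at 7.5 h, and 0.468 and 0.464 at 10 h. The TSA arrays were all above the carrier arrays, with the 7.5 h pool lowest of the 4. Both carrier arrays were below the intensity limit, so the probe was tested only because it was high in the TSA pools, and its call is a description that supports nothing. Its fitted log2 fold of 1.44 ± 0.20 (SE, limma, adjusted p = 0.0434) has no certain size, and was 0.80 with an offset of 0.2 added before log2.

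Barx2 (probe 1942, chromosome 9), a regulator of cell adhesion and muscle genes, was the one homeobox gene that passed the test of a linear trend over hours with the carrier pool at 0 h. It had 6.22 and 6.26 in the carrier pool, 10.2 and 10.1 at 2.5 h, 12.7 and 12.2 at 5 h, 18.7 and 17.7 at 7.5 h, and 17.6 and 15.3 at 10 h. Duplicates lay close and each pool up to 7.5 h was above the one before it, while the 10 h arrays were below those at 7.5 h. The slope was 0.145 ± 0.0246 log2 units per hour (SE, limma, adjusted p = 0.0437), and 149 of all tested probes (2.01%) passed this test, 0.35% rising and 1.66% falling. It did not pass the test of TSA pools against control, where its log2 fold was 1.16 ± 0.31 (SE, limma, adjusted p = 0.0776). The trend call was lost without any single TSA pool, the first or second 7.5 h array, the first 10 h array or the first array of every pool, and with no filter on dim probes, with slopes over all alternatives of 0.131 to 0.197.

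Evx1 and Gsc act in the gastrula and the early axis, and Evx1 stands at the tail end of the HoxA cluster. Evx1 (probe 6874, chromosome 6) had 0.214 and 0.231 in the carrier pool, 0.376 and 0.491 at 2.5 h, 0.348 and 0.403 at 5 h, 0.532 and 0.498 at 7.5 h, and 0.503 and 0.45 at 10 h. All TSA arrays were higher than the carrier arrays, which were close to the intensity limit. Its log2 fold was 1.004 ± 0.18 (SE, limma, adjusted p = 0.0474). With an offset of 0.2 added before log2 this fold was 0.62 ± 0.135 (SE, limma, adjusted p = 0.0472), so its size depends on the processing. Gsc (goosecoid, probe 1014, chromosome 12) had 0.972 and 1.01 in the carrier pool, 1.53 and 1.48 at 2.5 h, 1.53 and 1.33 at 5 h, 1.54 and 1.39 at 7.5 h, and 1.48 and 1.6 at 10 h. The 4 TSA pools stood at about 1 level, and the log2 fold was 0.59 ± 0.11 (SE, limma, adjusted p = 0.0478). After centring in probe ID bins the adjusted p was 0.0553 for Evx1 and 0.0579 for Gsc.

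Pax3 (probe 6230, chromosome 1), a gene of the neural crest and of muscle precursors, had 2.93 and 3.38 in the carrier pool, 5.6 and 5.44 at 2.5 h, 5.44 and 5.86 at 5 h, 5.56 and 5.18 at 7.5 h, and 5.38 and 5.58 at 10 h. The TSA arrays formed a flat series without overlap with the carrier arrays. Its log2 fold was 0.80 ± 0.11 (SE, limma, adjusted p = 0.0400), and 0.75 ± 0.10 (adjusted p = 0.0379) after centring in probe ID bins. Vax2 (probe 1240, chromosome 6), which specifies the lower part of the eye, had 0.832 and 0.929 in the carrier pool, 2.2 and 1.68 at 2.5 h, 1.59 and 1.4 at 5 h, 1.89 and 1.73 at 7.5 h, and 1.47 and 1.5 at 10 h. All TSA arrays were again higher, with the first 2.5 h array highest. Its log2 fold was 0.92 ± 0.18 (SE, limma, adjusted p = 0.0484), and the adjusted p was 0.0673 after centring in probe ID bins.

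Pou6f1 (probe 10491, chromosome 15), a POU domain gene of the nervous system, was the only tested homeobox gene that fell. It had 0.991 and 0.90 in the carrier pool, 0.444 and 0.457 at 2.5 h, 0.40 and 0.403 at 5 h, 0.352 and 0.327 at 7.5 h, and 0.46 and 0.478 at 10 h. Every TSA array read less than the lower carrier array. Its log2 fold was -1.20 ± 0.19 (SE, limma, adjusted p = 0.0467), which after centring in probe ID bins was -1.04 ± 0.20 with an adjusted p of 0.0521.

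**Figure D3:**
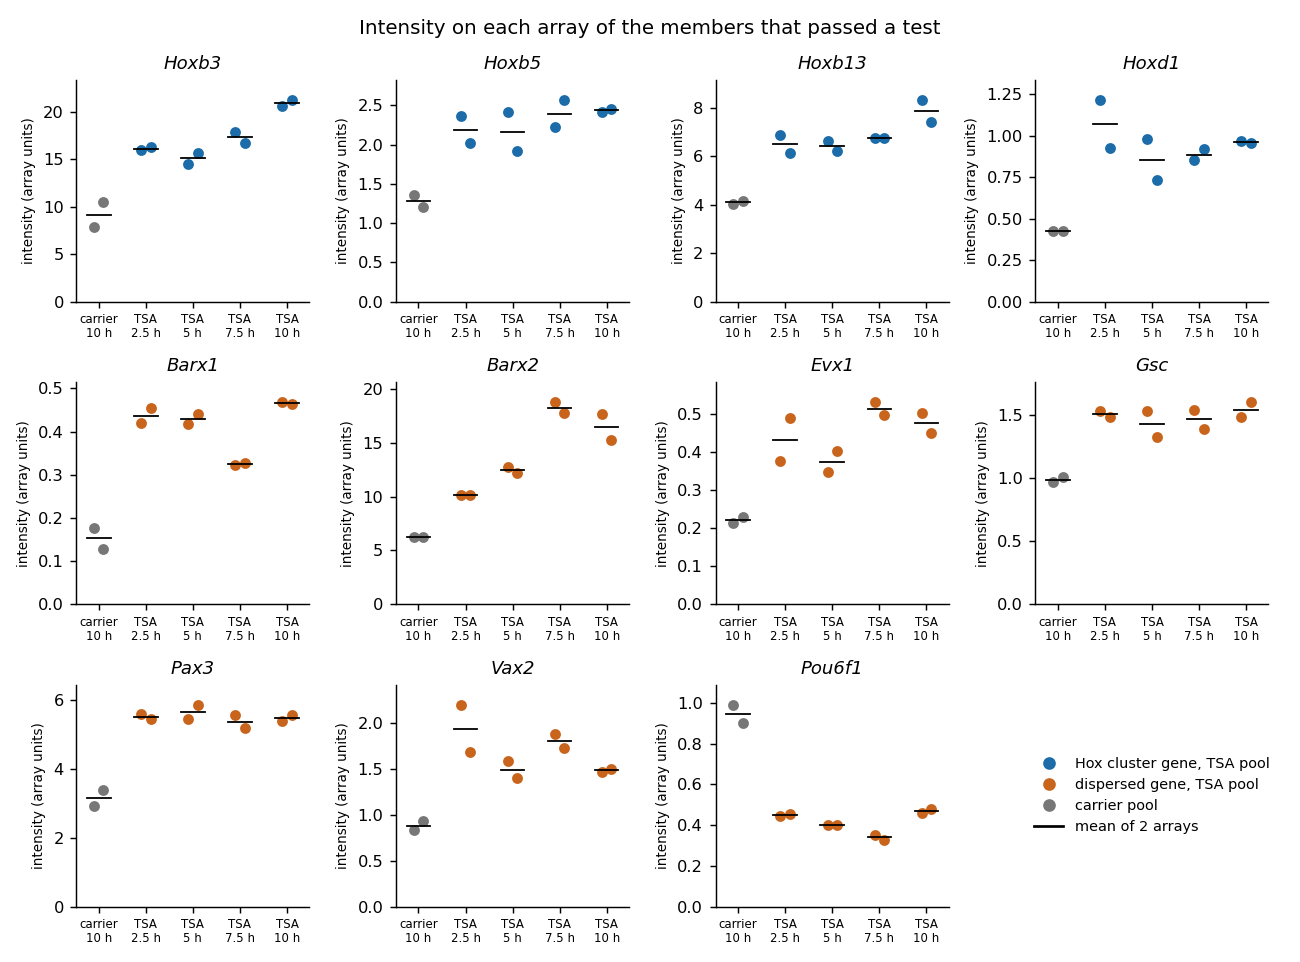
Intensity (array units, axes from 0) on each of the 10 arrays for the 10 homeobox genes that passed the test of TSA pools against control and Barx2, which passed the trend test. Points are single arrays, grey for the carrier pool, blue (Hox cluster) or orange (dispersed) for TSA pools, and lines are means of 2 arrays. All 8 TSA arrays lie above both carrier arrays for 10 genes and below them for Pou6f1.

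Of the genes that passed, Hoxd1, Barx1, Evx1, Gsc and Pou6f1 matched the RefSeq table of promoters (62 of the 88 genes did). The 250 bases before the RefSeq start are shown for the 4 of these that rose, as GRCm38.p6 gives them, 5′ to 3′ on the strand of the gene. The window of Pou6f1 is not shown because it overlapped the annotated body of Pou6f1 itself. The windows of Hoxd1, Barx1 and Evx1 overlapped the annotated genes Haglr, Gm36606 and Evx1os, and that of Gsc overlapped none. Capitals mark the GC box GGGCGG, the letters bound by Sp1 family factors, on either strand, and overlapping matches were counted separately. The windows are chr2:74762730-74762979 (plus strand) for Hoxd1, chr13:48662786-48663035 (plus strand) for Barx1, chr6:52313248-52313497 (plus strand) for Evx1 and chr12:104473237-104473486 (minus strand) for Gsc.
Hoxd1: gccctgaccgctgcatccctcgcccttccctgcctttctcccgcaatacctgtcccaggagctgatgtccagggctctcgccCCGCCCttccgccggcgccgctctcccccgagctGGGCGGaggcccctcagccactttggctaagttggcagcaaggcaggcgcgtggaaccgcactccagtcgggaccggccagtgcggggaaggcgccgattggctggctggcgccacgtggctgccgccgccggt
Barx1: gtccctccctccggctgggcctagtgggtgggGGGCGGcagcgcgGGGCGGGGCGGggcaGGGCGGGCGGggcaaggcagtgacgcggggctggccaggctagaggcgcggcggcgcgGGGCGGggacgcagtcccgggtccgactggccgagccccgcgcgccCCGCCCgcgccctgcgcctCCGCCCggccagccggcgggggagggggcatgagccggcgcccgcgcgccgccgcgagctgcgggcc
Evx1: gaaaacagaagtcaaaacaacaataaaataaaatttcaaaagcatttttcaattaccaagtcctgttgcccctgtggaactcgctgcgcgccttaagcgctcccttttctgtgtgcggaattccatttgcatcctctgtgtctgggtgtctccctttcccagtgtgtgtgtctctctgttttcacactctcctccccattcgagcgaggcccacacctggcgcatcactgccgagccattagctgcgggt
Gsc: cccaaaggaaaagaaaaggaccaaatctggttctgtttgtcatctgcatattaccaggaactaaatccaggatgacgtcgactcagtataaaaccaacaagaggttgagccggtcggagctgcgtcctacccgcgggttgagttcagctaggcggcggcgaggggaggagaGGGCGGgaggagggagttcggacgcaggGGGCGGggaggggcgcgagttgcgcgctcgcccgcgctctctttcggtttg

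Barx1 had 8 GC boxes, 40 CpG dinucleotides and 85.6% G and C in this window. Hoxd1 had 2 GC boxes, 24 CpG and 71.6%, and Gsc 2 GC boxes, 22 CpG and 59.2%. Evx1 had 0 GC boxes, 10 CpG and 49.6%. Pou6f1, which fell, had 3 GC boxes, 20 CpG and 68.0%, in a window that overlapped its own annotated gene body. Of all 32851 promoters listed, 32.7% held a GC box, the median number of CpG was 6 and the median G and C content 52.4%. The TATA box TATAAA was found in Gsc alone of the 5 and in 12.4% of all promoters, and CCAAT in Hoxd1 alone of the 5 and in 33.8%. Neither the homeodomain core TAATTA (4.8% of promoters) nor the nuclear receptor motif AGGTCA (14%) was found in any of the 5, on either strand.

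By single times, without a test, 5 homeobox genes were at least 2-fold from the carrier pool at 2.5 h with both arrays beyond both carrier arrays, 2 at 5 h, 6 at 7.5 h and 6 at 10 h. The share of all tested probes that met this rule was 0.916%, 1.55%, 1.91% and 2.67%. Of the homeobox genes 4, 1, 5 and 5 were on the higher side, against 0.674%, 1.21%, 1.01% and 1.23% of all tested probes, and 1 at each time was on the lower side, against 0.243%, 0.337%, 0.903% and 1.44%. Barx1, tested only because it was high in the TSA pools, was in each of these higher counts and alone in that of 5 h. Its part in the counts supports nothing. Without the limit on fold, both arrays were above both carrier arrays in 31, 30, 34 and 37 of the 51 genes, against 35.5%, 35.8%, 36.5% and 39.8% of all tested probes. They were below in 7, 11, 9 and 8 genes, against 39.8%, 42.8%, 38.6% and 38.6%. The 10 h pool, matched to the carrier pool in hour, held Hoxb3 at 1.21 ± 0.21, Hoxd1 at 1.18 ± 0.0081, Barx1 at 1.63 ± 0.23, Barx2 at 1.40 ± 0.10, Evx1 at 1.0995 ± 0.097 and Pou6f1 at -1.01 ± 0.075 (log2 fold with the SE of the duplicate arrays). The fold of Barx1 has no certain size. At 7.5 h Hoxd1, Barx1, Barx2, Evx1 and Vax2 were higher and Pou6f1 was lower, and at 5 h Barx1 was higher and Pou6f1 lower. At 2.5 h the rule held for Hoxd1, Barx1, Vax2, Pou6f1 and Nkx2-1, a thyroid and lung regulator with a fold of 1.003 and carrier arrays of 0.33 and 0.20. Barx1 was past the rule on the higher side and Pou6f1 on the lower side at all 4 times, as were 20 (0.269%) and 4 (0.0539%) of all tested probes. For Barx1 this too supports nothing. All 4 folds share the carrier pool.

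Of the 40 tested homeobox genes that passed neither test 29 (72.5%) had a log2 fold above 0, with a median of 0.16, against 47.4% and -0.02 for the 7011 probes that passed neither. The arrays of all 4 TSA pools were above both carrier arrays in 15 of these 40 (37.5%) and below in 4, against 20.3% and 21.9%. Over the 51 tested genes the log2 fold of the TSA pools had a median of 0.25, and 39 (76.5%) were above 0, against a median of -0.02 and 47.9% for all tested probes. The median was 0.22 for the 13 Hox cluster genes, with 10 above 0, and 0.28 for the 38 dispersed genes, with 29 above 0. Without the filter on dim probes the median over all 88 genes was 0.17 and 60 (68.2%) were above 0, against -0.01 and 48.8% of all probes, with 0.13 for the 26 Hox cluster genes and 0.26 for the 62 dispersed genes. In 25 of the 51 genes (49.0%) the arrays of all 4 TSA pools were above both carrier arrays, and in 5 they were below, against 22.2% and 23.0% of all tested probes. Among the tested probes at or below their median intensity of 1.99, which held 37 of the 51 genes, 3.34% rose, against 5 of those 37 genes, Barx1 among them. In the brighter probes 2.13% rose, against 4 of 14 genes.

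No test of the difference between Hox cluster and dispersed genes was made, and their medians are given as a description. The median log2 fold of the Hox cluster genes was 0.05, 0.24, 0.30 and 0.40 at 2.5, 5, 7.5 and 10 h, and that of the dispersed genes was 0.30, 0.16, 0.40 and 0.37. For all tested probes it was -0.02, -0.03, -0.01 and 0.01. The medians of the classes over the 4 TSA pools differed by -0.06 (Hox cluster minus dispersed), with -0.14 from the second arrays alone and 0.01 from the first arrays alone. With the lowest 50% of probes left out this difference was 0.48, but only 24 of the genes remained, so the 2 values do not cover the same genes.

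**Figure D4:**
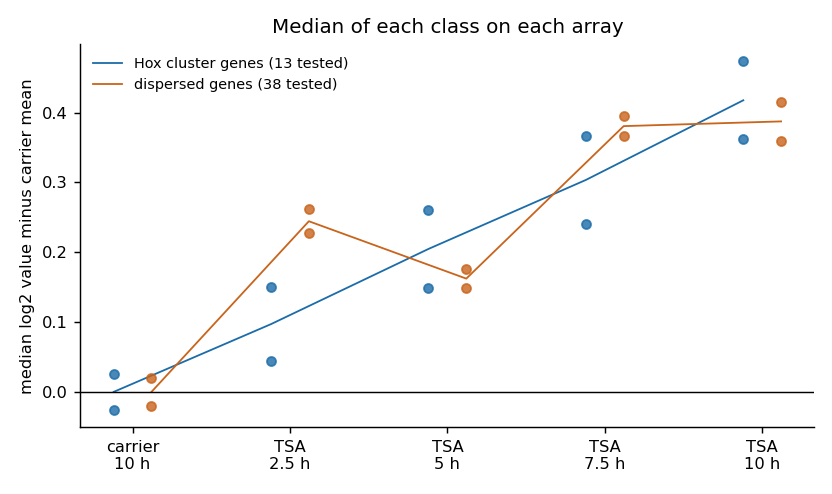
Median over the tested genes of a class of the log2 value minus the carrier mean, on each array (points), with the pool means joined by lines. The medians of both classes lie above those of the carrier arrays on all 8 TSA arrays, between 0.04 and 0.47 for Hox cluster genes and between 0.15 and 0.42 for dispersed genes.

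By family, the Dlx genes of jaw and forebrain development had 5 tested members, all above 0 but none past the test, from 0.07 for Dlx6 to 0.52 ± 0.19 for Dlx2 (limma, adjusted p = 0.144). Of 4 tested LIM homeobox genes Lhx4, a pituitary regulator, stood highest at 0.67 ± 0.14 (limma, adjusted p = 0.0522), Lhx1 at 0.49 and Lhx2 at 0.08, while Lhx6, a gene of forebrain interneurons, stood at -0.44 ± 0.21 (limma, adjusted p = 0.211). Besides Pax3, Pax4 of the pancreas stood at 0.46 and Pax1 of the vertebral column at 0.425, with adjusted p of 0.0958 and 0.0755 (limma). The Nkx genes were split, with Nkx2-1 at 0.75 ± 0.18 (limma, adjusted p = 0.0629) and Nkx2-4 and Nkx2-6 at -0.30 and -0.19. The TALE genes of the Meis, Pbx and Irx families, whose Meis and Pbx members bind DNA together with Hox proteins, had 5 tested members with folds of 0.08 to 0.30, and 0 passed either test, with 1 and 0 at an unadjusted p under 0.05 (28.3% and 25.1% of all tested probes; limma; 0.25 for Meis1, 0.30 for Pbx2). Six3, a forebrain and eye gene, had 5.89 and 5.9958 in the carrier pool, 7.26 and 7.6 at 2.5 h, 7.32 and 7.65 at 5 h, 7.99 and 8.12 at 7.5 h, and 7.72 and 7.79 at 10 h. No TSA array overlapped the carrier arrays, and the log2 fold was 0.37 ± 0.11 (SE, limma, adjusted p = 0.0973).

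The POU genes differed among themselves. Pou5f2, the germ cell member, had intensities of 15.3 and 14.6 in the carrier pool, 13.2 and 13.7 at 2.5 h, 10.924 and 10.902 at 5 h, 12.2 and 13.2 at 7.5 h, and 11.6 and 12.6 at 10 h. All TSA arrays were below the carrier arrays, but the log2 fold of -0.29 ± 0.14 did not pass (SE, limma, adjusted p = 0.228). Pou5f1, the pluripotency factor Oct4, stood at -0.07 ± 0.15 (limma, adjusted p = 0.766). Pou3f4, a gene of the inner ear and brain, stood at 0.35 and Pou2af1, the B cell coactivator, at 0.73 ± 0.16 (limma, adjusted p = 0.0541).

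Genes that act on the Hox clusters were read from 4 further lists. Of 23 tested Polycomb probes 0 rose and 0 fell in either test of limma, with 4 and 6 at an unadjusted p under 0.05 (TSA pools against control and trend; 28.3% and 25.1% of all tested probes) and a median log2 fold of 0.02, among them Rbbp4 at -0.31 and Phc1 at 0.02. Of 9 Trithorax genes 0 passed, with 3 and 1 at an unadjusted p under 0.05 (28.3% and 25.1% of all tested probes) and a median of 0.06. Ash2l, a subunit of the methyltransferase complexes of histone H3, stood at 0.06. Retinoic acid, made from vitamin A, induces Hox genes in the embryo and meiosis in the testis, and of 11 tested genes of its synthesis and action 0 passed, with 3 and 3 at an unadjusted p under 0.05 (28.3% and 25.1% of all tested probes) and a median of -0.05. Aldh1a1, an enzyme of its synthesis, stood at 0.35 ± 0.15 (limma, adjusted p = 0.182). Of 8 Hox cofactors and regulators, with a median of 0.11, 1 rose, against 2.74% of all tested probes. In this list 2 and 2 were at an unadjusted p under 0.05 (limma), against 28.3% and 25.1% of all tested probes. Ctcf, the gene that rose, encodes a protein that binds chromatin boundaries. It had pool intensities of 0.588 in the carrier pool and 1.004, 0.878, 1.02 and 0.98 at 2.5, 5, 7.5 and 10 h, and a log2 fold of 0.72 ± 0.13 (SE, limma, adjusted p = 0.0474).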

How the data were processed

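Testis RNA pools were read on CodeLink 1-colour (Cy5) arrays, per the labels. The deposited table holds linear intensity values of 10012 probes on 10 arrays, 115 of them without values. Once sorted, the 10 arrays held the same values (largest difference 0), so the authors' deposited intensities had been quantile normalised. Scanner software, background correction and spot flags have no source here. Symbols came from the platform table, matched by gene identifier to a mouse RefSeq table for 8975 probes.

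The 5th percentile (0.0364) served as a floor before log2. The dimmest 25% of probes by mean log2 value (limit 0.207) were dropped, which kept 7422. Duplicate arrays were averaged, and limma 3.58.1 in R 4.3.3 was fitted to the 5 pool means across all probes, with 3 residual degrees of freedom. The tests were TSA pools against control and a linear slope over hours (control at 0 h), both two-sided, adjusted by Benjamini-Hochberg over the 7422 probes at 0.05. Single times had no p-value but a rule of size, a 2-fold difference with both arrays beyond both control arrays. Scripts were tested on simulated data. Alternatives were other filters, no floor, an offset of 0.2, subtracting on each array the median deviation from the probe means in each of 50 bins of neighbouring probe IDs (centring in probe ID bins), arrays or pools left out, limma on 10 arrays with the replicate number or the pool as a block, eBayes with trend and robust, and other size rules. Each of these genes had 1 probe, so averaging probes of a gene gives the same values. Members and lists were chosen with earlier results of these data known. Values on every array are given for genes that passed a test, or the size rule at 2 or more times, or once with an intensity above the median of tested probes. They are also given for Six3 and Pou5f2, which were among the 5 members of highest mean intensity. Members of list genes named are those that passed a test and up to 2 of the highest intensity, and family members with a fold but no array values were picked after their values were seen. Plots used Python 3.11.15 and matplotlib 3.10.9.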

Additional observations from a re-analysis of the deposited data

Results flagged for a closer look

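Hoxc9 and Pou2f2 were each above both carrier arrays on both arrays of 1 TSA pool and below them on both arrays of another, and these differences between times were not tested. Hoxc9, a gene of the trunk, had a log2 fold of 0.32 at 10 h (2.99 and 2.72, against 2.21 and 2.35 in the carrier pool) and of -0.15 at 5 h (2.04 and 2.07). Pou2f2, a POU gene of B cells, had a log2 fold of 0.30 at 2.5 h (1.29 and 1.02, against 0.97 and 0.90 in the carrier pool) and of -0.60 at 10 h (0.631 and 0.601).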

How the results depend on the processing

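The count of 10 homeobox genes in the test of TSA pools against control stayed within 1.5 times with no floor (10), an offset (10) and eBayes with trend and robust (13). With the lowest 50% left out it was 9 of the 24 genes still tested, not the same set. Gsc, Hoxb3, Hoxb5, Hoxb13, Pax3 and Vax2 passed again, and Barx2, Cdx4 and Pax1 were added. Hoxd1, Barx1, Evx1 and Pou6f1 were no longer tested. The count was 0 with no filter on dim probes (28 of 88 at an unadjusted p under 0.05, limma, against 21.4% of all probes). It was 4 after centring in probe ID bins: Hoxb5, Hoxd1, Pax3 and Barx1, whose call supports nothing. Without the 2.5, 5, 7.5 or 10 h pool it was 0, 0, 1 and 0 (27, 24, 22 and 24 unadjusted, against 30.2%, 23.8%, 22.6% and 28.2% of all tested probes). Leaving out single arrays, or 1 array of every pool, gave 0 to 12: 0 without the second 2.5 h array, the first 7.5 h array or the second array of every pool, 1 without the second 7.5 h array or the first array of every pool, 2 without the first 10 h array, 3 without the first 2.5 h array, 4 without the second 5 h array, 5 without the second 10 h array and 6 without the first 5 h array. On 10 arrays it was 25 with the replicate number as a block and 16 with pools as random blocks. The block fit treats duplicates as separate samples. Across 10 pairs of pools, the deviations of arrays with the same number had correlations of -0.187 to 0.14, so the numbers did not pair the arrays. Over all tested probes the count was 262. It was 573, 262, 328 and 795 with the lowest 50% left out, no floor, an offset and eBayes with trend and robust, 1 with no filter, 205 after centring, 3, 3, 6 and 7 without the 2.5, 5, 7.5 or 10 h pool, 1 to 496 with arrays left out, and 2388 and 1044 with the replicate block and the random block. The single gene with a trend became 0 with no filter (25 unadjusted, against 18.8% of all probes), 2 with the lowest 50% left out, 0 without the 2.5, 5, 7.5 or 10 h pool (31, 22, 20 and 13 unadjusted, against 28.6%, 22.5%, 20.1% and 16% of all tested probes), 26 with the replicate block, 7 with the random block, 3 with eBayes with trend and robust, and 0 to 1 with arrays left out. Over all probes the trend count was 149, and it was 0, 179, 0, 41, 29, 0, 2111, 719 and 289 in these settings, 24 to 193 with arrays left out, and 242 after centring in probe ID bins, where 1 homeobox gene passed.

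The size rule at 2.5, 5, 7.5 and 10 h held for 10, 6, 12 and 11 genes with no filter, 1, 0, 2 and 2 with the lowest 50% left out, 1, 0, 2 and 2 with an offset, 15, 12, 13 and 23 at 1.5-fold, and 0, 0, 0 and 1 at 3-fold. Centring in probe ID bins gave 2 at 2.5 h and 1 at 5 h. Arrays left out gave 4 to 6, 2 to 4, 5 to 6 and 6 to 9, with 4 at 5 h without its second array or the second array of every pool. Over all probes these counts of 68, 115, 142 and 198 became 219, 355, 554 and 458 with no filter, 16, 27, 37 and 73 with the lowest 50% left out, 21, 66, 42 and 75 with an offset, 562, 730, 876 and 1221 at 1.5-fold, and 12, 42, 16 and 29 at 3-fold. The difference of class medians was 0.48 with the lowest 50% left out, where 24 genes remained, and -0.15 to 0.02 with arrays left out. No fold of the 11 genes given in full changed sign in any setting in which it was tested. Calls in the test of TSA pools against control were lost in 9 (Barx1 and Pax3) to 17 (Vax2) of 23 or 24 settings. Barx1 was tested only because it was high in the TSA pools, so its calls in these settings support nothing.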
